A study of Homo sapiens with 8 samples.

Results

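NF-Y occupancy was compared between antibodies to 2 of its subunits, NFYB and NFYC, in RH4 cells. The members are the 7003 peaks of both RH4 lists (3243 for NFYB and 3760 for NFYC) out of 22724 peaks in the 6 NFYB and NFYC lists of the series. A peak was called shared when it overlapped a peak of the other antibody by at least 1 bp, and NFYB-only or NFYC-only otherwise. RH4 is an established human rhabdomyosarcoma line of PAX3-FOXO1+ genotype, a tumour type of the skeletal muscle lineage, and the cells were uninfected and untreated. The assay was CUT&RUN: a nuclease held at the antibody cuts out DNA around a bound protein. Each antibody had 1 library, so no difference below has a replicate check. The other lists are NFYB peaks of RH30 cells, also labelled PAX3-FOXO1+, which carried an inducible cytosine base editor and were collected on day 8 of induction with rapamycin. They received sgCCAAT2a or sgCCAAT2b, guides to a CCAAT motif in the endogenous PAX3 promoter, or the control guides sgCtrl1 or sgCtrl2, with 1 library each. The RH30 libraries have RH30 in their titles and RH4 as source name and cell line, and are called RH30 here after the titles. The IgG libraries were not analysed here. No expression was measured, so the cells could not be checked by marker genes, and the read depth behind both RH4 lists is unknown.

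The trimer NF-Y holds 1 copy each of NFYA, NFYB and NFYC. The last 2 pair through histone-fold domains that touch DNA with little preference for sequence, and NFYA joins that pair and reads the CCAAT pentanucleotide, which typically lies a short way upstream of transcription starts. An antibody to either histone-fold subunit therefore marks the same complex where the whole trimer is bound, and NF-Y is known in many cell types for promoters of cell cycle, lipid synthesis and endoplasmic reticulum genes.

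The promoters printed here are examples of the classes in sequence, and not every promoter of a class looks like them. Of promoter windows with NFYC alone 59.4% held CCAAT, and of those with both 52.9% held at least 2. They come from the RefSeq promoter table of build GRCh38.p14, run 5′ to 3′ along the transcribed strand, and cover 250 bases before to 50 bases after an annotated start. Capitals mark CCAAT on the printed strand or ATTGG where the motif is on the other strand. The first set lay under peaks of both antibodies: CKS1B (chr1:154974431-154974730, plus strand), a cyclin-dependent kinase subunit with one of the closest matches between the lists, TESK2 (chr1:45491114-45491413, minus strand), a protein kinase gene with a pair of nearly equal width, and PAX3 (chr2:222298949-222299248, minus strand), the gene of the muscle progenitor factor whose N-terminal part is in the fusion.
CKS1B: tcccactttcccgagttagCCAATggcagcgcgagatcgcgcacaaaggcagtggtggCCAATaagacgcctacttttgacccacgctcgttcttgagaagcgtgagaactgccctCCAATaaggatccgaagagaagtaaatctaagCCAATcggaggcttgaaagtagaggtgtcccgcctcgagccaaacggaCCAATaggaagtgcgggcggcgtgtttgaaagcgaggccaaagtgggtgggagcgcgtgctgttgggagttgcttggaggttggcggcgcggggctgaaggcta
TESK2: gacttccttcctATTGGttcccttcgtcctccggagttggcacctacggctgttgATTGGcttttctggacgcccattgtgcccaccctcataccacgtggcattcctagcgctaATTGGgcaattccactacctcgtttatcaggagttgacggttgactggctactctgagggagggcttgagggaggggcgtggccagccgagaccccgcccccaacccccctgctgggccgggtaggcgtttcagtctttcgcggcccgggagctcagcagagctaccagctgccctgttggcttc
PAX3: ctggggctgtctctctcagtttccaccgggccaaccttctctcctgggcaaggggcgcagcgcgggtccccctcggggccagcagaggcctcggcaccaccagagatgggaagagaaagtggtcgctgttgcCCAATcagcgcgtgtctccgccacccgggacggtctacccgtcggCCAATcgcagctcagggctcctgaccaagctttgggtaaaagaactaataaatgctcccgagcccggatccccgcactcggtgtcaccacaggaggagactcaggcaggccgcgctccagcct

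CKS1B held 5 motifs, with first bases 54, 102, 134, 192 and 231 bp before the start, all on the printed strand. TESK2 held 3, at 135, 195 and 238 bp, all on the other strand. PAX3 held 2, at 73 and 118 bp before the start.

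The second set lay under NFYC peaks alone: PLK1 (chr16:23678639-23678938, plus strand), which encodes a mitotic kinase, and FOXO1 (chr13:40666592-40666891, minus strand), the other partner gene of the fusion.
PLK1: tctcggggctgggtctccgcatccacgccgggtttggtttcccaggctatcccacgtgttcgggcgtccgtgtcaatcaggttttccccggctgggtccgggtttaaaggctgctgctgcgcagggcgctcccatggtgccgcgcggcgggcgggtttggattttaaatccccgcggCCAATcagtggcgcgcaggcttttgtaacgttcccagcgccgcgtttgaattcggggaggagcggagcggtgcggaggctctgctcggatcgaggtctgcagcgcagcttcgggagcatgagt
FOXO1: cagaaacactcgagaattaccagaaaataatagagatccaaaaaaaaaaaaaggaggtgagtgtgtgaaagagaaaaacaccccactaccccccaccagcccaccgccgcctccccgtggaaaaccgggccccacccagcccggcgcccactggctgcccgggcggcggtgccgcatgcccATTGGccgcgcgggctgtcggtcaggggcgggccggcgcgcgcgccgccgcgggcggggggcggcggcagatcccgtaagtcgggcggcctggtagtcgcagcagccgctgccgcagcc

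Each held 1 motif, 73 bp before the start in PLK1 and 69 bp before it in FOXO1, and each lay under the NFYC peak.

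The third set lay under NFYB peaks alone: SCYL3 (chr1:169893847-169894146, minus strand), a pseudokinase gene, and SYS1 (chr20:45362906-45363205, plus strand), which encodes a Golgi membrane protein.
SCYL3: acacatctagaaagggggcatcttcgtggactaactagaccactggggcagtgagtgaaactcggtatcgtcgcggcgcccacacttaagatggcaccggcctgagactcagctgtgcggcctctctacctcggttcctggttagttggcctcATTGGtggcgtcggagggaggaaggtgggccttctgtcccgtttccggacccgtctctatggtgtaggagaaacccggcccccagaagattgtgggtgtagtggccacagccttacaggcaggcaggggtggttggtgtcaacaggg
SYS1: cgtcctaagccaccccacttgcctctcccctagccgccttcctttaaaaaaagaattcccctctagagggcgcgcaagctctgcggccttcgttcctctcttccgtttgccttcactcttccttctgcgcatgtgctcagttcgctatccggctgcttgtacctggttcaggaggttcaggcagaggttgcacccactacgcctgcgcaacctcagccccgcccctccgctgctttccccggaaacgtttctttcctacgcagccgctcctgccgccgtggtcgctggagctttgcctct

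SCYL3 held 1 motif, 97 bp before the start on the other strand, and the SYS1 window held 0.

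By the rule of 1 bp most peaks of each antibody were shared, and the NFYC list held the larger group of its own. NFYB-only peaks numbered 354, or 10.9% of the NFYB list (exact Clopper-Pearson 95% interval 9.86 to 12%), beside 2889 shared NFYB peaks. NFYC-only peaks numbered 690, or 18.4% of the NFYC list (17.1 to 19.6%), beside 3070 shared NFYC peaks. The intervals cover the counting of peaks only, and the shares have unlike denominators. The shares depend on the rule: when 50% of both peaks had to overlap, 53.7% of NFYB and 46.3% of NFYC peaks were shared. Few single-antibody peaks were near misses: 8.19% of NFYB-only peaks had an NFYC peak within 1000 bp, and 9.13% of NFYC-only peaks had an NFYB peak that close. The median gap to the nearest peak of the other antibody was 150038 bp for NFYB-only and 70990.5 bp for NFYC-only peaks.

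The single-antibody peaks were narrow, many of them at the smallest width their list holds. NFYB-only peaks had a median width of 234 bp (230 to 244, from the order statistics), against 424 bp (421 to 428) for shared NFYB peaks. NFYC-only peaks had a median width of 98 bp (94 to 101), against 220 bp (216 to 226) for shared NFYC peaks. The NFYB list holds no peak under 210 bp and the NFYC list none under 76 bp. Exactly at these minima were 26% of NFYB-only and 2.53% of shared NFYB peaks, and 24.8% of NFYC-only and 3.78% of shared NFYC peaks. The widest NFYB-only peak spanned 525 bp where shared NFYB peaks reached 1235 bp, and the widest NFYC-only peak spanned 317 bp where shared NFYC peaks reached 996 bp.

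**Figure D1:**
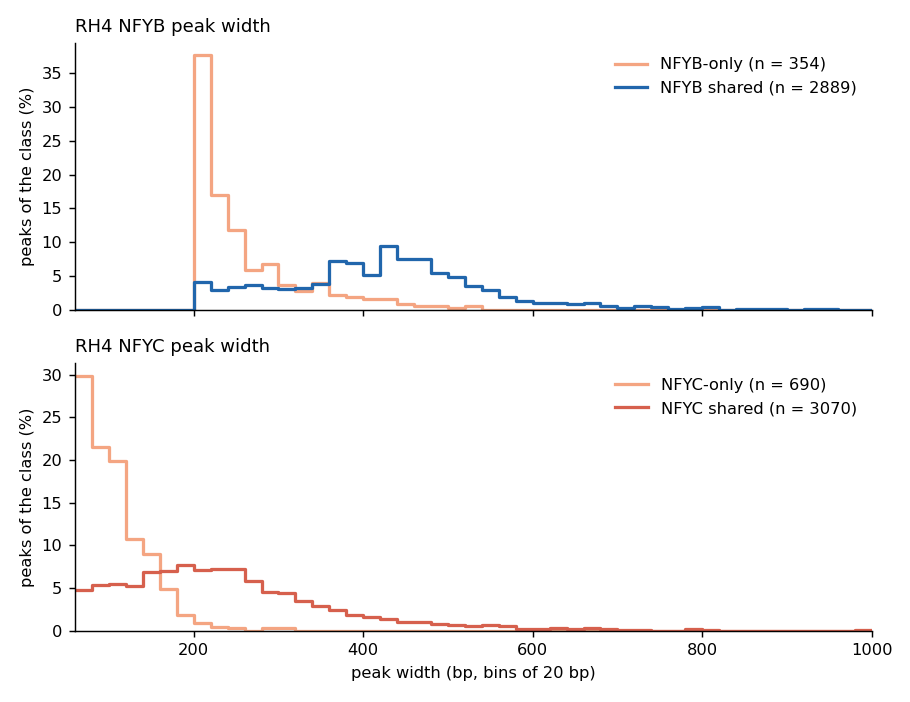
Width of RH4 peaks in bp (x axis, bins of 20 bp, drawn to 1000 bp) as a percent of each class (y axis), NFYB above and NFYC below. Single-antibody peaks pile up at the smallest width of their list, and the medians are 234 bp for NFYB-only against 424 bp for shared NFYB, and 98 bp for NFYC-only against 220 bp for shared NFYC.

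Sharing rose with width in both lists. With each list cut by width into 10 equal parts, 50.5% of the narrowest NFYB peaks were shared (210 to 230 bp, interval 44.9 to 56.0%), 85.8% of those of 277 to 335 bp, and all 324 of the widest (563 to 1235 bp). Of the narrowest NFYC peaks 42.0% were shared (76 to 81 bp, interval 37.0 to 47.2%), of those of 131 to 161 bp 74.7%, and of the widest (380 to 996 bp) all 376. A wide peak also has more bases that can overlap, and its part in this rise was not tested. With every peak set to 200 bp about its centre, 89.1% of all NFYB and 78.9% of all NFYC peaks were shared.

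Where both antibodies had a peak, the NFYB peak was nearly always the wider and the NFYC peak lay inside it. The lists formed 3075 overlapping pairs, of which 2704 were 1-to-1. The NFYB peak was wider in 98.2% of pairs, by a median of 183 bp (179 to 186; quartiles 129 and 235), and in 55 pairs the NFYC peak was as wide or wider. The NFYC peak lay wholly inside the NFYB peak in 80.0% of pairs (78.6 to 81.4%), and the NFYB peak inside the NFYC peak in 15 pairs, or 0.488%. Where the NFYC peak ran past one end, it did so at the higher coordinate in 10.3% and at the lower in 9.17% of pairs. Whether the wider NFYB peaks belong to the protein, the antibody, the depth or the calling cannot be told apart with 1 library each. Across sites, the NFYB and NFYC widths of 1-to-1 pairs had a Spearman rho of 0.760 and a Pearson r of 0.799 (n = 2704 pairs). These points share their libraries and their call settings, and sites are not replicates.

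The centres of both antibodies lay close together, with no side preferred along the chromosome. Pairs overlap by rule, which limits the distance between their centres. The absolute distance between centres had a median of 30.5 bp (29 to 32.5) over all pairs and 27.5 bp (26.5 to 29) over 1-to-1 pairs. The signed offset, NFYB centre minus NFYC centre along the chromosome, had a median of 0 bp (-2 to 2) and an SD of 77.2 bp over pairs, or 49.8 bp over 1-to-1 pairs. Genes run both ways along the chromosome, so a shift along transcription would cancel here and was not tested. Centres lay within 50 bp of each other in 67.8% of pairs and within 100 bp in 87.9%. The offset was largest where the NFYC peak was narrow: its median was 57.5 bp (52.5 to 63) in the narrowest 25% of NFYC partners (76 to 153 bp) and 28.5, 24.5 and 27.5 bp in the next 25% steps of width.

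**Figure D2:**
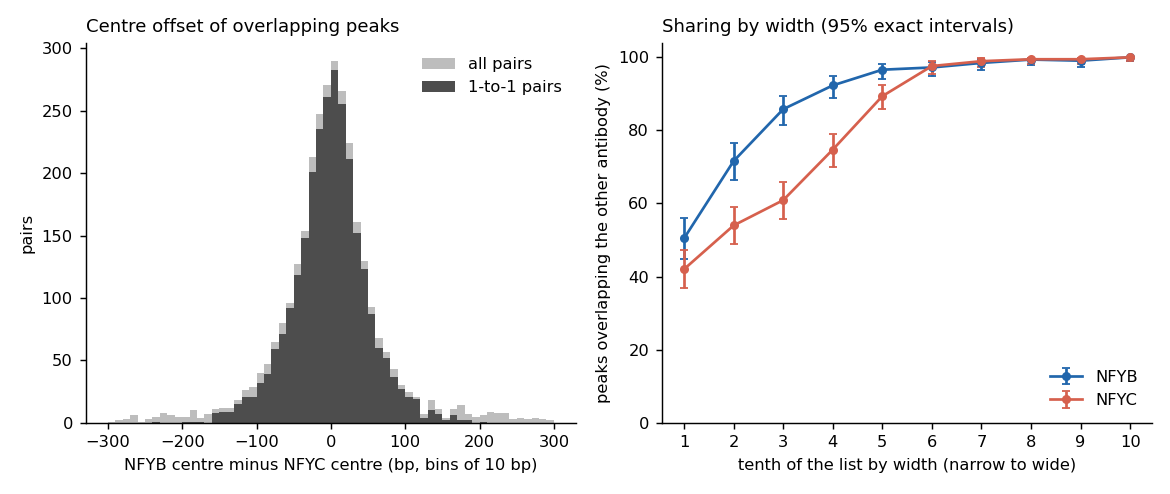
Left, NFYB centre minus NFYC centre in bp (x axis, bins of 10 bp, drawn from -300 to 300 bp) against the number of overlapping pairs, all 3075 in light grey and the 2704 1-to-1 pairs in dark grey. Right, percent of peaks that overlap the other antibody (y axis, bars are exact 95% intervals) in 10 equal parts of the list from narrow to wide, rising from 50.5% to 100% for NFYB and from 42.0% to 100% for NFYC.

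Some wide NFYB peaks overlapped several NFYC peaks. This held for 175 NFYB peaks with 2 NFYC partners, 4 with 3 and 1 with 4, while 5 NFYC peaks had 2 NFYB partners. Neighbouring NFYC centres under one NFYB peak were a median of 249.75 bp apart (n = 186 spacings, quartiles 204.5 and 311 bp). NFYB peaks with several partners had a median width of 500.5 bp, those with 1 partner 421 bp. The peak with 4 partners lay at MIA and RAB4B, a gene for a small GTPase of endosome recycling, at chr19:40777564-40778709 of hg38 (1146 bp). Its NFYC partners were 170, 574, 130 and 76 bp wide. At SUCO an NFYB peak of 814 bp overlapped NFYC peaks of 76, 570 and 76 bp, and at ANKHD1, a gene for an ankyrin repeat protein, one of 935 bp overlapped NFYC peaks of 77, 274 and 501 bp. Among pairs at a gene end, these outer partners had the largest offsets, at 561 and 511 bp for MIA/RAB4B, 446 bp for ANKHD1 and 392 bp for SUCO. Pairs away from gene ends were left out of this ranking, and some of them had offsets as large. C10orf143 (375 bp), CBX5 with HNRNPA1 (362 bp), ZNF436 (358 bp) and RAB11B (350.5 bp) followed, each under an NFYB peak with 2 NFYC partners. CBX5 encodes a heterochromatin protein and HNRNPA1 an RNA-binding protein, and their shared NFYB peak, at 1235 bp, is the widest of the list.

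At the other extreme the lists drew the same interval to within a few bases. Among pairs at a gene end, the largest overlap as a share of the bases covered by either peak was 98.1% at ZCCHC2, where the NFYB peak spanned 366 bp and the NFYC peak 371 bp. CKS1B with SHC1, a signalling adaptor, had 779 bp for NFYB and 790 bp for NFYC, with centres 8.5 bp apart. PEG3, which is imprinted, and its neighbour ZIM2 had 989 bp and 980 bp, and TESK2 had 330 bp and 318 bp with centres 2 bp apart. AGPAT5, RRAS with SCAF1, CASP2 with TMEM139 and RAB40C also overlapped by 95.1% to 96.9%. The median over all pairs was 53.0% (51.9 to 53.9%).

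The subunit genes themselves had peaks of both antibodies. At NFYA the NFYB peak spanned 726 bp and the NFYC peak 515 bp, with centres 8.5 bp apart. At NFYC they spanned 712 bp and 335 bp with an offset of 54.5 bp, and at NFYB 258 bp and 128 bp with an offset of 7 bp. Both peaks of the NFYB gene were thus far narrower than those of NFYA. At PAX3 the NFYB peak spanned 228 bp (chr2:222298920-222299147) and the NFYC peak 93 bp (chr2:222299050-222299142), and both motifs printed above lay under the NFYC peak. Both widths are low in their lists, below the shared medians of 424 bp and 220 bp. At FOXO1 the NFYC list had a peak of 146 bp (chr13:40666617-40666762) and the NFYB list had none.

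NFYC-only peaks lay away from gene ends more often than any other class. A peak was counted at a gene end when any of its bases lay within 1000 bp of an end of a RefSeq protein-coding gene. The share was 74.3% for NFYB-only peaks (69.4 to 78.8%), against 77.5% for shared NFYB peaks (76.0 to 79.0%), and these intervals overlapped. It was 57.0% for NFYC-only peaks (53.2 to 60.7%), against 77.4% for shared NFYC peaks (75.9 to 78.9%). Centres more than 10 kb from any gene end made up 15.0% of NFYB-only and 11.3% of shared NFYB peaks, and 24.6% of NFYC-only and 11% of shared NFYC peaks. NFYB-only peaks stood apart in another way: 51.1% of their centres lay within a gene, against 34.1% for shared NFYB peaks, while the shares were 36.1% for NFYC-only and 33.2% for shared NFYC peaks.

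The difference in NFYC persisted among peaks of like width. In the narrowest 25% of each list, a setting added after seeing the data, 55.0% of 484 NFYC-only peaks (50.4 to 59.5%) and 72.8% of 470 shared NFYC peaks (68.5 to 76.7%) lay at a gene end. In the same 25% of the NFYB list the shares were 73.7% of 281 NFYB-only and 70.2% of 530 shared peaks.

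NFYB-only centres lay just past transcription starts more often than shared NFYB centres. Distances were taken along transcription to the nearest start in the promoter table, which gave starts for 15742 of the 20033 genes, and peaks on chromosome 8 were not used here. From the start to 300 bp after it lay 23.1% of NFYB-only centres (18.8 to 27.9%) and 8.14% of shared NFYB centres (7.16 to 9.21%). In the 150 bp before the start, the usual place of CCAAT, lay 18.5% of NFYB-only (14.5 to 23%) and 41.3% of shared NFYB centres (39.5 to 43.2%). NFYC-only peaks kept the usual place: 5.48% of their centres lay in the first 300 bp after the start and 35.4% in the 150 bp before it, against 6.64% and 43.9% for shared NFYC peaks. Of centres within 1000 bp of a start, 63.6% of NFYB-only, 86.4% of shared NFYB, 86.6% of NFYC-only and 88.0% of shared NFYC were upstream. Part of the NFYB difference went with width: in the narrowest 25%, 25.5% of NFYB-only (20.5 to 31.1%) and 16.7% of shared NFYB centres (13.6 to 20.2%) lay in the 300 bp after the start. Among the same peaks, 15.3% of NFYB-only (11.3 to 20.1%) and 23.1% of shared NFYB centres (19.5 to 27.0%) lay in the 150 bp before the start. The intervals before the start overlapped.

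**Figure D3:**
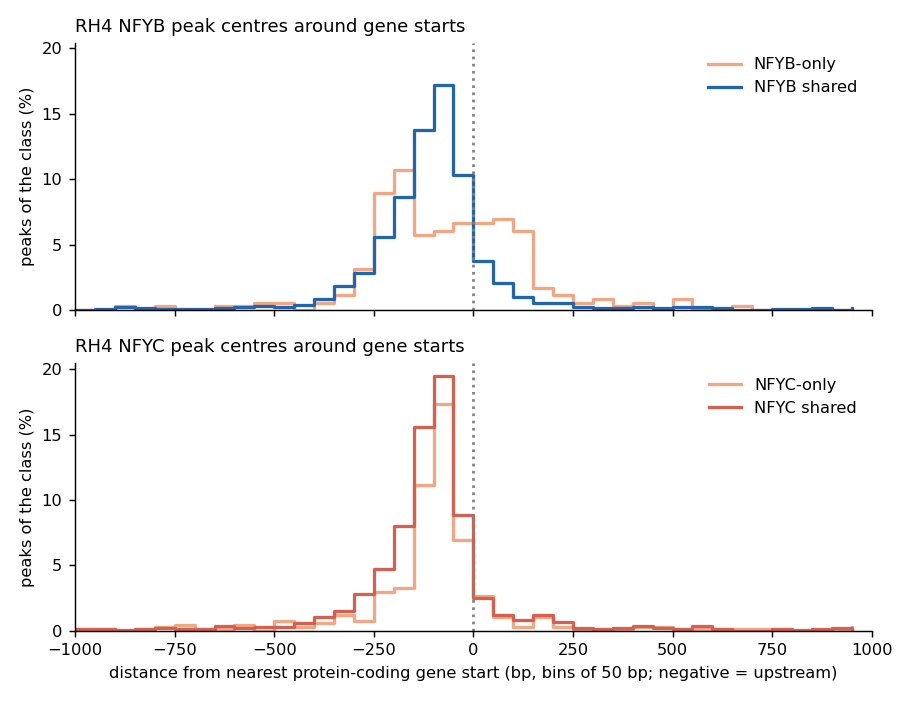
Position of peak centres relative to the nearest protein-coding start in bp (x axis, bins of 50 bp, negative is upstream) as a percent of each class (y axis), NFYB above and NFYC below. Shared classes and NFYC-only peak just upstream of the start, whereas NFYB-only centres spread over both sides, with 23.1% of them in the first 300 bp after it.

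The CCAAT pentanucleotide separated the classes of promoter. All 22077 promoter windows of 300 bp were searched on both strands for CCAAT, and a window was put in a class by the peaks that overlap it. These are not the peak classes, since a shared NFYB peak can touch a window that its narrower NFYC partner does not reach. For example, the NFYC gene window chr1:40691454-40691753 counts as NFYB alone, although the NFYB peak touching it is shared. How many windows are of this kind was not counted. CCAAT was present in 42.9% of 368 windows with an NFYB peak alone (37.8 to 48.2%), in 59.4% of 357 with an NFYC peak alone (54.1 to 64.5%), in 87.5% of 2434 with both (86.1 to 88.8%), and in 27.3% of 18918 with neither (26.7 to 27.9%). Over all windows the share was 34.7%. At least 2 CCAAT were present in 8.97%, 17.6%, 52.9% and 6.04% of these classes in the same order. The letters ACCAT, of the same base composition, were in 17.7%, 15.7%, 16.7% and 22.9%. Genes have several windows, and neighbours share bases, so windows are not independent.

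Other promoter letters differed less between windows with one antibody alone and windows with both. GGGCGG, the core of the GC box read by SP factors, was in 72.3% of windows with NFYB alone, 81.0% with NFYC alone, 81.9% with both and 52.2% with neither. TATAAA was in 6.25%, 4.48%, 3.62% and 10.4%. The GC content of the classes, which bears on both, averaged 65.5%, 66.5%, 65.3% and 60.2%.

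Both antibodies put their centres equally close to CCAAT. In 788 1-to-1 pairs with 100 bp either side of both centres inside promoter windows, a CCAAT lay within 50 bp of 84.5% of NFYB centres (81.8 to 87.0%) and of 87.7% of NFYC centres (85.2 to 89.9%). In the 743 pairs with a CCAAT within 100 bp of both centres, the nearest one was a median of 16 bp away for NFYB and for NFYC (15 to 17.5 for each). The NFYB centre was the nearer in 49.1% and the NFYC centre in 49.0% of these pairs, and the median difference was 0 bp (-1.5 to 1.5). The single-antibody classes differed from these: a CCAAT lay within 50 bp of 32.1% of 53 NFYB-only centres (19.9 to 46.3%) and of 61.0% of 210 NFYC-only centres (54.0 to 67.6%), against 18.5% of all promoter positions. The NFYB-only value rests on few peaks, since most of that class do not lie inside a window with enough room. Among peaks in the narrowest 25% the shares were 20% of 35 NFYB-only and 36.5% of 96 shared NFYB centres, and 59.7% of 144 NFYC-only and 71.0% of 145 shared NFYC centres. These intervals overlapped in both lists.

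**Figure D4:**
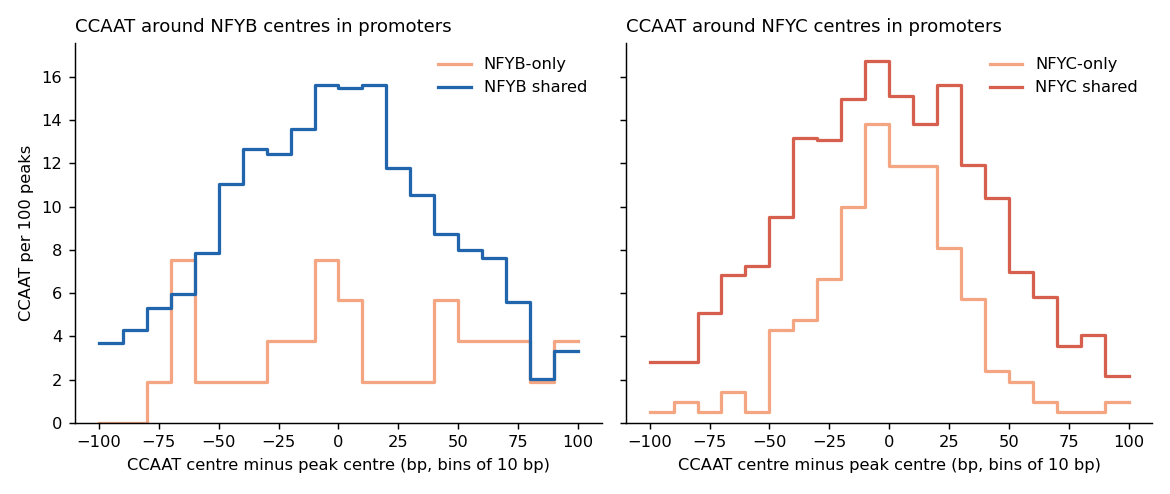
CCAAT motifs per 100 peaks (y axis) by distance from the peak centre in bp (x axis, bins of 10 bp), for 53 NFYB-only peaks and 788 shared pairs at left and 210 NFYC-only peaks and the same pairs at right. Motifs gather at the centre of shared peaks of both antibodies and of NFYC-only peaks, and the NFYB-only line, from few peaks, lies below the shared line in every bin within 50 bp of the centre.

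The letters next to CCAAT differed too when motifs were grouped by the peaks that cover them. A CCAAT in a shared NFYB peak but outside its NFYC partner counts as under NFYB alone. The group under NFYB alone is therefore not the NFYB-only class, and the number of such motifs was not counted. Among CCAAT under peaks of both antibodies, read along the motif, the base before it was G in 50.4% and the base after it was C in 50.8% (n = 3336), against 32.5% and 34.5% for CCAAT under neither (n = 6336). Under NFYC alone G came before in 61.6% and C after in 53.5% (n = 271), and under NFYB alone in 43.7% and 39.6% (n = 245). A T as the second base after the motif was rare under NFYC alone, at 2.58%, and under both, at 3.42%, and more common under NFYB alone, at 13.5%, and under neither, at 19.5%. CCAAT under NFYC alone were thus at least as rich in these flanks as those under both, and the values under NFYB alone lay between those under both and under neither. Flanks were not used to make these groups.

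Promoters with several CCAAT had the wider peaks, and spacings of 24 to 44 bp were more frequent where both antibodies had a peak. Median NFYB widths were 388.5, 431, 489 and 552 bp at pairs whose window held 1, 2, 3 and 4 or more CCAAT, and NFYC widths were 187, 243, 290 and 355 bp. With 0 CCAAT they were 392.5 and 187.5 bp, no lower than with 1. Each pair was given the window with most CCAAT among those it touched, and a wide pair can touch more windows. Neighbouring CCAAT in windows with both antibodies were 24 to 44 bp apart in 42.9% of 2116 spacings (40.7 to 45%), against 25.8% of 1447 spacings (23.5 to 28.1%) in windows with neither. Windows with both held a mean of 1.74 CCAAT, against 0.35 with neither, and more motifs in a window leave shorter spacings. The part of motif number was not tested, and overlapping windows can count one spacing again. The most frequent spacings in windows with both were 32, 31 and 30 bp, with 89, 77 and 69 cases, followed by 41 bp with 66. In windows with neither they were 31 bp with 36 cases and 41 bp with 26, so these lengths were not particular to windows with both. The share at 31 bp was 3.64% with both and 2.49% with neither. In windows with NFYC alone 49.4% of 85 spacings were 24 to 44 bp (38.4 to 60.5%), and with NFYB alone 24.3% of 37 (11.8 to 41.2%).

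The RH30 lists, which were not used to make the classes, held fewer of the single-antibody sites. Any of the 4 RH30 NFYB lists overlapped 44.4% of NFYB-only peaks (39.1 to 49.7%), against 87.0% of shared NFYB peaks (85.7 to 88.2%). They overlapped 48.8% of NFYC-only peaks (45.1 to 52.6%), against 83.5% of shared NFYC peaks (82.2 to 84.8%). With the classes made again from the widest 50% of each list, the shares were 79.1% of NFYB-only and 85.8% of NFYC-only peaks, and peaks whose narrower partner was left out then count as single. NFYC-only sites, which had no NFYB peak in RH4, were thus met by an NFYB peak of RH30 about as often as NFYB-only sites were, and these intervals overlapped, although NFYC-only peaks are the narrower. All 4 RH30 lists held 3.67% of NFYB-only (1.97 to 6.20%), 50.4% of shared NFYB, 10.3% of NFYC-only (8.12 to 12.8%) and 46.8% of shared NFYC peaks. By library, sgCCAAT2a held 9.04% and sgCCAAT2b 8.47% of NFYB-only peaks, against 28.0% with sgCtrl1 and 38.1% with sgCtrl2. For NFYC-only peaks the shares were 16.8% with sgCCAAT2a and 19.9% with sgCCAAT2b, against 30.3% with sgCtrl1 and 37.2% with sgCtrl2. The sgCCAAT2a and sgCCAAT2b lists are the shorter ones, with 2451 and 2558 peaks against 4025 with sgCtrl1 and 6687 with sgCtrl2, and the shared classes also had lower shares there. In the narrowest 25% any RH30 list overlapped 41.6% of NFYB-only and 71.1% of shared NFYB peaks, and 43.6% of NFYC-only and 55.3% of shared NFYC peaks. The intervals of the NFYC classes, 39.1 to 48.1% and 50.7 to 59.9%, lay much closer there than over the whole list.

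Most genes with a peak of one antibody at an end had one of the other too. Of 20033 protein-coding genes, 3010 (15%) had an NFYB peak at an end and 3074 (15.3%) an NFYC peak, and 2701 (13.5%) had both. In 2679 of these 2701 a pair of peaks overlapped, and in 22 the peaks lay apart. An NFYB peak and no NFYC peak was found at 309 genes (1.54%), and an NFYC peak and no NFYB peak at 373 (1.86%). These shares are the background for the gene lists that follow. Neighbouring genes with a common promoter share their peaks and are not independent.

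In the lists of pathways for which NF-Y is known, members with a peak mostly had both antibodies. This was also so over all genes, where 2701 of the 3383 with any peak had both. Of 24 genes of endoplasmic reticulum folding and stress 20 had both, with pairs of 599 bp (NFYB) and 475 bp (NFYC) at P4HB and 503 and 395 bp at PDIA4, both protein disulfide isomerases. The chaperone gene HSP90B1 had 603 and 418 bp and DDIT3, a stress transcription factor, 413 and 286 bp. The thioredoxin-fold gene ERP44 had an NFYC peak alone, at the list minimum of 76 bp. Of 25 genes of cholesterol and fatty acid synthesis 17 had both, 8 had neither and 0 had one alone, with HMGCS1, the synthase gene of the mevalonate pathway, at 624 bp for NFYB and 472 bp for NFYC and MVD at 373 and 250 bp. Of 12 serine and one-carbon genes 6 had neither and 6 had both, including the regulator ATF4 (501 and 361 bp), MTHFD1 (483 and 328 bp), PSPH (466 and 260 bp) and SHMT1 (441 and 196 bp). Of 12 NF-Y subunits and promoter partners 6 had neither and 6 had both, among them SP1 (875 and 681 bp), SP3 (532 and 270 bp) and E2F1 (420 and 246 bp).

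In the mitosis, replication and histone lists the few members with one antibody alone had NFYC. Over all genes 1.86% had NFYC alone and 1.54% NFYB alone, and such small counts do not separate the antibodies here. Of 25 mitosis genes 18 had both, 6 had neither and PLK1 had an NFYC peak of 76 bp alone. TPX2, a spindle factor, had 481 bp for NFYB and 410 bp for NFYC, UBE2C, a ubiquitin-conjugating enzyme of mitotic exit, 543 and 365 bp, and the kinase gene AURKA 521 and 345 bp with centres 72 bp apart. Of 28 replication genes 14 had both and 12 neither, with PCNA, the sliding clamp, at 559 and 427 bp, ORC6 at 671 and 495 bp, GINS1 at 423 and 288 bp and TK1 at 423 and 286 bp. CCNE1, a G1 cyclin gene, had an NFYC peak of 81 bp alone, and POLD1, a polymerase subunit gene, one of 170 bp. Of 69 histone genes 23 had both and 43 neither, and H2AC16 (145 bp), H3C1 (106 bp) and H3C10 (92 bp) had an NFYC peak alone. Divergent histone genes share their pairs: H1-4 and H2BC5 each count the pair of 256 and 203 bp, and H2AC17 and H2BC17 that of 383 and 239 bp.

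In the cytosolic ribosomal list the members with one antibody alone had NFYB, and in the proteasome list most of them had NFYC. Of 86 cytosolic ribosomal protein genes 16 had both, such as RPL28 (282 bp for NFYB and 313 bp for NFYC, one of the 55 pairs in which NFYC was not the narrower) and RPL13A (419 and 288 bp). RPL18, RPL35A and RPS19 had an NFYB peak alone, each at the list minimum of 210 bp, and 0 had an NFYC peak alone. Of 77 mitochondrial ribosomal protein genes 12 had both, with MRPS27 under NFYB alone (405 bp) and MRPL28 under NFYC alone (111 bp). Of 48 proteasome genes 9 had both, PSMB5, a catalytic subunit gene, had NFYB alone (245 bp), and 4 had NFYC alone: PSMC3, PSMC4 and PSME1 at 76 bp and PSMD8 at 147 bp. Of 59 splicing genes 19 had both, among them SNRPD2, a core snRNP protein gene (704 and 655 bp), and HNRNPR (522 and 451 bp). HNRNPD (335 bp), SF3A1 (221 bp) and HNRNPA2B1 had NFYB alone, the last with separate peaks of 220 and 215 bp, and HNRNPM (202 bp) and SF3B5 (76 bp) had NFYC alone. Counts this small do not separate the antibodies by list.

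Zinc finger genes named ZNF, many of which encode repressors of the KRAB type, were the largest list. Of 509, 116 had both, 7 NFYB alone and 19 NFYC alone, so 27.9% had any peak (24 to 32%). Over all genes 3383 of 20033 had any peak, with 13.5% both, 1.54% NFYB alone and 1.86% NFYC alone. ZNF548 had 210 bp for NFYB and 184 bp for NFYC, and ZNF367 had 450 and 437 bp. NFYB alone was found at ZNF211 (317 bp), ZNF281 (270 bp), ZNF335 (220 bp), and ZNF383 and ZNF69 (210 bp each). NFYC alone was found at ZNF14 (113 bp), ZNF200 (132 and 76 bp), ZNF318 (109 bp), and ZNF275 and ZNF304 (76 bp each).

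Any peak was found at 16% of the muscle list (4.54 to 36.1%) and 20% of the fusion target list (5.73 to 43.7%), where 3383 of all 20033 genes had one. Of 25 myogenic genes 3 had both, among them MEF2D (265 bp for NFYB and 195 bp for NFYC) and PAX3. CKM, the muscle creatine kinase gene, had an NFYB peak of 214 bp alone at a gene end, and no peak touched its promoter window. Of 20 reported PAX3-FOXO1 targets ABAT (441 and 235 bp), OLIG2 (242 and 155 bp), ASS1 (468 and 181 bp) and the receptor kinase gene ALK (360 and 114 bp) had both. Of 16 heat shock and chaperone genes 4 had both: HSPA8 (490 and 448 bp), CCT3 (469 and 329 bp), TCP1 (311 and 199 bp) and HSPH1 (621 and 342 bp). CIITA, the transactivator of MHC class II genes, was the only one of 11 genes of that list with peaks (433 and 242 bp). The 10 blood cell and 10 liver cell markers had 0, which allows a share of up to 30.8% in each.

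**Figure D5:**
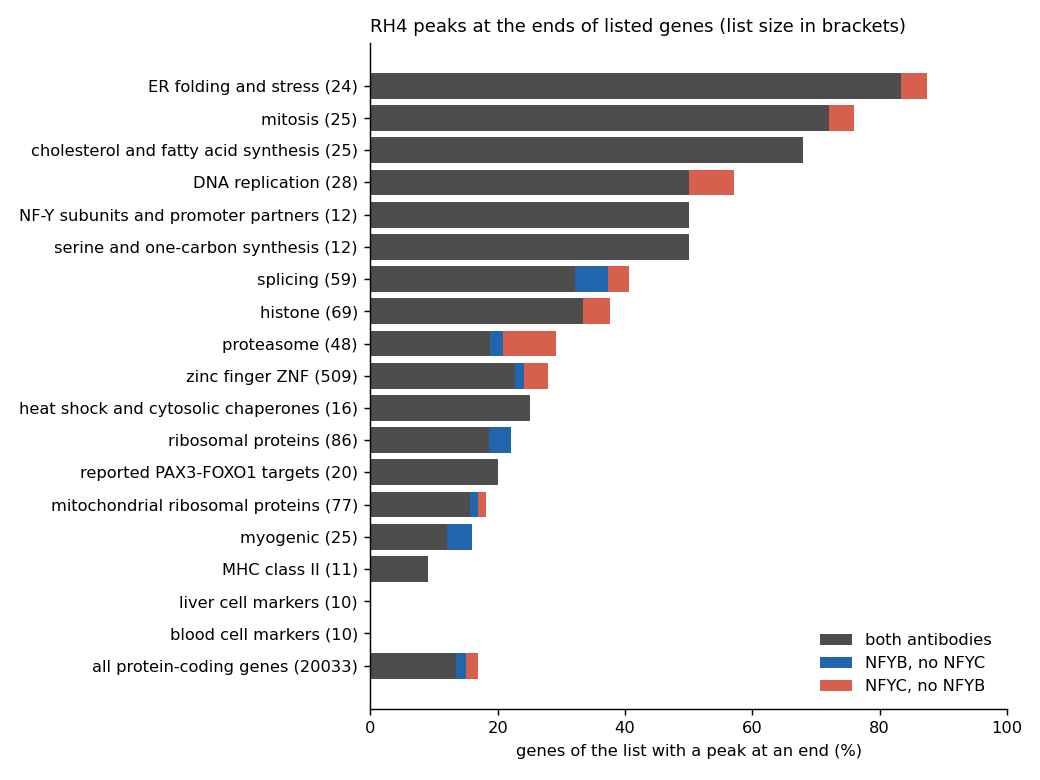
Percent of each gene list with a peak at a gene end (x axis), list sizes in brackets, split into genes with both antibodies (grey), NFYB and no NFYC (blue) and NFYC and no NFYB (red). The grey part makes up most of every bar that has one, from 20 of 24 endoplasmic reticulum genes down to 1 of 11 MHC class II genes, beside 13.5% of all 20033 genes. It also makes up most of the bar of all genes, where 2701 of the 3383 with any peak had both.

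The widest single-antibody peaks were named among those at a gene end, leaving out wider peaks elsewhere. For NFYB they lay at HOXC9, a homeobox gene (525 bp, 39771 bp from the nearest NFYC peak), SCYL3 (521 bp), PLCG1, a phospholipase C gene (512 bp), KIAA1328 with TPGS2 (488 bp), SYS1 (464 bp), JAK2, a kinase of cytokine receptors (446 bp), FUZ (443 bp) and MPC2, a subunit of the mitochondrial pyruvate carrier (432 bp). The HOXC9 peak was also met by a peak in all 4 RH30 lists, that of KIAA1328 with TPGS2 in 3, and those of SCYL3, SYS1 and JAK2 in 0. For NFYC they lay at NIPAL3 (317 bp, 1659 bp from the nearest NFYB peak), MIER2 (311 bp), ZNF865 (295 bp), AP4M1 with MCM7, a replicative helicase gene (288 bp, 379 bp away), EP300, a histone acetyltransferase gene (246 bp), GNA11, a G protein subunit gene (227 bp), FKBP8 (222 bp) and MAN1B1 (219 bp). The FKBP8 peak was met in all 4 RH30 lists by an NFYB peak, and those of NIPAL3, GNA11 and MAN1B1 in 0.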

How the data were processed

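Positions came from the authors' deposited peak lists, 1 per library, in bp on hg38. The lists carry no peak heights, and the columns besides chromosome, start and end were not used. The tools named in the submitters' processing notes, without versions or roles, are Bowtie2, MACS2, HOMER, Trimmomatic, FastQC, deepTools and bedtools. Per the file headers, the RH30 peaks were called with HOMER findPeaks in factor style against an input. The caller and depth of the RH4 lists are not given in the sources used here. The authors' consensus and differential files were not used here.

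Overlaps, widths, centres and gaps were computed in Python 3.11.15 with pandas 2.3.3, and coordinates are printed from 1. RefSeq annotation of GRCh38.p14 gave 20033 protein-coding genes, and starts, strands and sequences came from its promoter table. The deposited positions are on the same assembly. Shares have exact Clopper-Pearson 95% intervals (scipy 1.17.1) and medians have order-statistic intervals. Both cover counting only, and no p-value was computed. The code was tested on simulated data: 20 of 20 overlap counts matched bedtools 2.31.1, and 200 of 200 planted motifs were found.

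Named genes followed a fixed rule: the 8 pairs at a gene end of largest overlap share, the 8 of largest offset, the 8 widest gene-end peaks of each single-antibody class (a promoter shared by neighbouring genes counts once), up to 5 list members per antibody with one antibody alone, up to 4 per list with both, and PAX3, FOXO1, NFYA, NFYB and NFYC. Some genes that the rule names are not reported here. The members, lists and rule were chosen with earlier results of these data known. Alternatives were other overlap rules, fixed widths, the widest 50% of each list, 1-to-1 pairs, gene windows of 500 and 3000 bp, and primary chromosomes.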

Additional observations from a re-analysis of the deposited data

How the results depend on the processing

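Of 71 alternative values of the main results, 40 stayed within their interval (within 1.5 times for gene counts) and 31 moved out of it. The median width difference stayed above 0 in each alternative run that reports it. The run with every peak set to 200 bp is not among these, since it makes all widths equal. When 50% of both peaks had to overlap, 53.7% of NFYB and 46.3% of NFYC peaks were shared, the median width difference was 153 bp and the offset 25.5 bp, and the shares at a gene end were 79.5% of shared NFYB, 79.2% of shared NFYC and 68.9% of NFYC-only peaks. With the widest 50% of each list, 86.7% of NFYB and 76.0% of NFYC peaks were shared, the width difference was 189 bp and the offset 26 bp, and the shares at a gene end were 82.7%, 82.4% and 74.9% in the same order. There the genes with both antibodies numbered 1434, and RH30 lists overlapped 79.1% of NFYB-only and 85.8% of NFYC-only peaks, since narrow partners had been removed. With widths set to 200 bp 78.9% of NFYC peaks were shared, and 1-to-1 pairs gave a width difference of 175 bp and an offset of 27.5 bp. Windows of 500 bp gave 73.8% of shared NFYB, 73.0% of shared NFYC and 52.8% of NFYC-only peaks at a gene end, and 3000 bp gave 81.8%, 82.1% and 64.3%. With 50% of both peaks required, RH30 lists overlapped 33.1% of NFYB-only and 30.4% of NFYC-only peaks. In the narrowest 25% of each list, chosen after seeing the data, the shares at a gene end were 70.2% of shared NFYB and 72.8% of shared NFYC peaks, which turned the order of NFYB-only (73.7%) and shared NFYB peaks with overlapping intervals, and RH30 lists overlapped 43.6% of NFYC-only peaks. With 1 start per gene, also chosen after seeing the data, CCAAT was in 49.2% of NFYB-alone and 89.0% of both-antibody windows. No paired analysis was possible because each antibody has 1 library. Without peak heights or depth, a site absent from one list cannot be told from one just under its calling limit.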

Other observations

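The share of single-antibody peaks varied between chromosomes, given here as values without a test. On chromosome 18, 9 of 26 NFYB peaks were NFYB-only (34.6%, exact 95% interval 17.2 to 55.7%) and 10 of 27 NFYC peaks were NFYC-only (37.0%, 19.4 to 57.6%), beside 10.9% and 18.4% of the whole lists. On chromosome 5 the shares were 19.6% (12.6 to 28.4%) for NFYB and 21.4% (14.3 to 29.9%) for NFYC, and on chromosome 20 they were 19.2% and 18.4%. The NFYC intervals of chromosomes 5 and 20 cover the share of the whole NFYC list. Chromosome 6, which holds the main histone clusters, had 4.26% NFYB-only (1.17 to 10.5%) and 21.4% NFYC-only (14.3 to 29.9%). This NFYC interval also covers the share of the whole NFYC list. The NFYB-only share was lower still on chromosome 15, at 3.49% (0.725 to 9.86%), and was 6.15% (3.11 to 10.7%) on chromosome 16. Chromosome 19, rich in ZNF genes, held the most peaks, with 448 for NFYB and 548 for NFYC, of which 8.93% and 19.9% were of one antibody alone. These chromosomes were singled out after their values were seen.

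Here too each CCAAT was grouped by the peaks that cover it, not by peak class. A CCAAT lying in several overlapping windows took its strand and place from the window listed first. Where such windows run in opposite directions that choice is arbitrary, and the number of such motifs was not counted. CCAAT under peaks of both antibodies lay on the transcribed-direction strand in 52.4% of 3357 cases (50.7 to 54.1%), against 47.0% of 6410 CCAAT under neither (45.7 to 48.2%). Their place was also narrower: 21.0% of CCAAT under both and 34.9% of 272 under NFYC alone lay 50 to 75 bp before the start, against 13.3% of 248 under NFYB alone and 16.4% under neither. CCAAT after the start made up 7.26% in the first 25 bp and 4.44% in the next under NFYB alone, against 1.10% and 0.566% under both and 5.02% and 4.02% under neither. TGACGT, the core of the CRE read by CREB and ATF factors, was in 12.2% of windows with NFYB alone, 14.0% with NFYC alone, 14.8% with both and 8.01% with neither.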
